A study of Mus musculus with 12 samples.

Results

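The interferon response genes described here are 41 genes known as targets of type I interferons or of interferon gamma, found by symbol among the 23235 gene symbols of 12 mouse RNA sequencing libraries. The list names them by symbol, and no measured value enters the rule. The libraries came from FVB/NJ mice and fall into 4 groups of 3. For epidermis, mice were shaved, and a week later their skin received 400 µL of 20% camphor white oil (CWO, an essential oil of the camphor tree) or the acetone vehicle, and the epidermis was separated with 3.8% ammonium thiocyanate after 24 h. The age of these mice is not given in the sources used here. For papillomas, which are benign skin tumours, mice shaved at 6 to 7 weeks of age received 400 nmol of the carcinogen DMBA once and 10 nmol of the tumour promoter TPA repeatedly. They were then given 20% CWO or acetone vehicle for 6 weeks, and each library holds 4 pre-malignant tumours of like size pooled from 1 of 3 mice per group. DMBA, TPA and the acetone in which they were applied were therefore common to both papilloma groups, and the papilloma groups differ from the epidermis groups in carcinogen, length of treatment and way of dissection as well as in tissue, and may differ in age.

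Interferons are secreted proteins that cells release when they sense viral nucleic acid or when T cells and natural killer cells are activated. Type I interferons act through JAK kinases on a complex that holds STAT2 and IRF9 and binds the interferon-stimulated response element (ISRE). The interferon gamma response works through the gamma-activated site (GAS), and through IRF1 as a second step. In skin the genes that follow include RNA-degrading and virus-restricting effectors, GTPases that attack vacuoles of microbes, chemokines that draw T cells, and inhibitors that end the signal.

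Levels are given as FPKM, fragment numbers scaled by transcript length and library depth, so that they can be compared between genes per length. The 12 libraries held 11.1 to 24.6 M (mega) fragments, and 11838 to 12452 genes per library reached 1 FPKM. All 6 keratinocyte markers were at 1 FPKM or more in every library. The libraries also differed in other cells. The summed level of 8 skeletal muscle markers was 2977 to 14812 FPKM in vehicle epidermis and 2453 to 3142 FPKM in CWO epidermis, against 32.6 to 307 FPKM in vehicle papilloma and 3.50 to 45.1 FPKM in CWO papilloma. In bulk tissue, fewer cells of a type and less RNA per cell cannot be told apart.

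Of the 41 genes, 28 passed the filter of at least 1 FPKM in at least 3 of the fitted libraries in 1 or more comparisons, and 22 passed it in all 4. The 13 that never passed were Ifit1, Ifit2, Ifit3, Oas3, Mx1, Mx2, Rsad2, Ifi44, Gbp3, Tgtp1, Tgtp2, Cxcl9 and Cxcl11. Many of these are the classical antiviral effectors of a strong type I response, such as Mx1, a GTPase that blocks influenza virus, and Rsad2 (viperin). Ifit2, Mx1, Mx2, Rsad2, Ifi44, Tgtp2 and Cxcl11 were below 1 FPKM in all 12 libraries. Just outside the filter, Cxcl9 reached 1 FPKM in 2 libraries, with a highest value of 1.69 FPKM. Just inside it, Iigp1 reached 1 FPKM in 5 libraries, with a highest value of 1.56 FPKM. Tgtp1 had too little data for the authors' quantification in all 12 libraries. Tgtp2, a near-identical copy, is listed at the same place and at another place on chromosome 11, and its level is the sum of both. Neither level can therefore be read with confidence. At the other end, the genes with the highest mean levels in vehicle epidermis were Ifi35 with 27.8 ± 2.29 FPKM (SD, n = 3) and Irf9, the DNA-binding subunit of the type I interferon complex, with 26.0 ± 2.11 FPKM.

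The ligands themselves were hardly detected. Of 14 interferon genes looked for, among them Ifnb1, Ifng, the keratinocyte interferon Ifnk and several Ifna genes, 6 were at 0 in all libraries. The highest level of any was 0.663 FPKM for Ifnk, and no ligand had more than 7 fragments in a library. No ligand passed the filter, so none was tested.

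**Figure D1:**
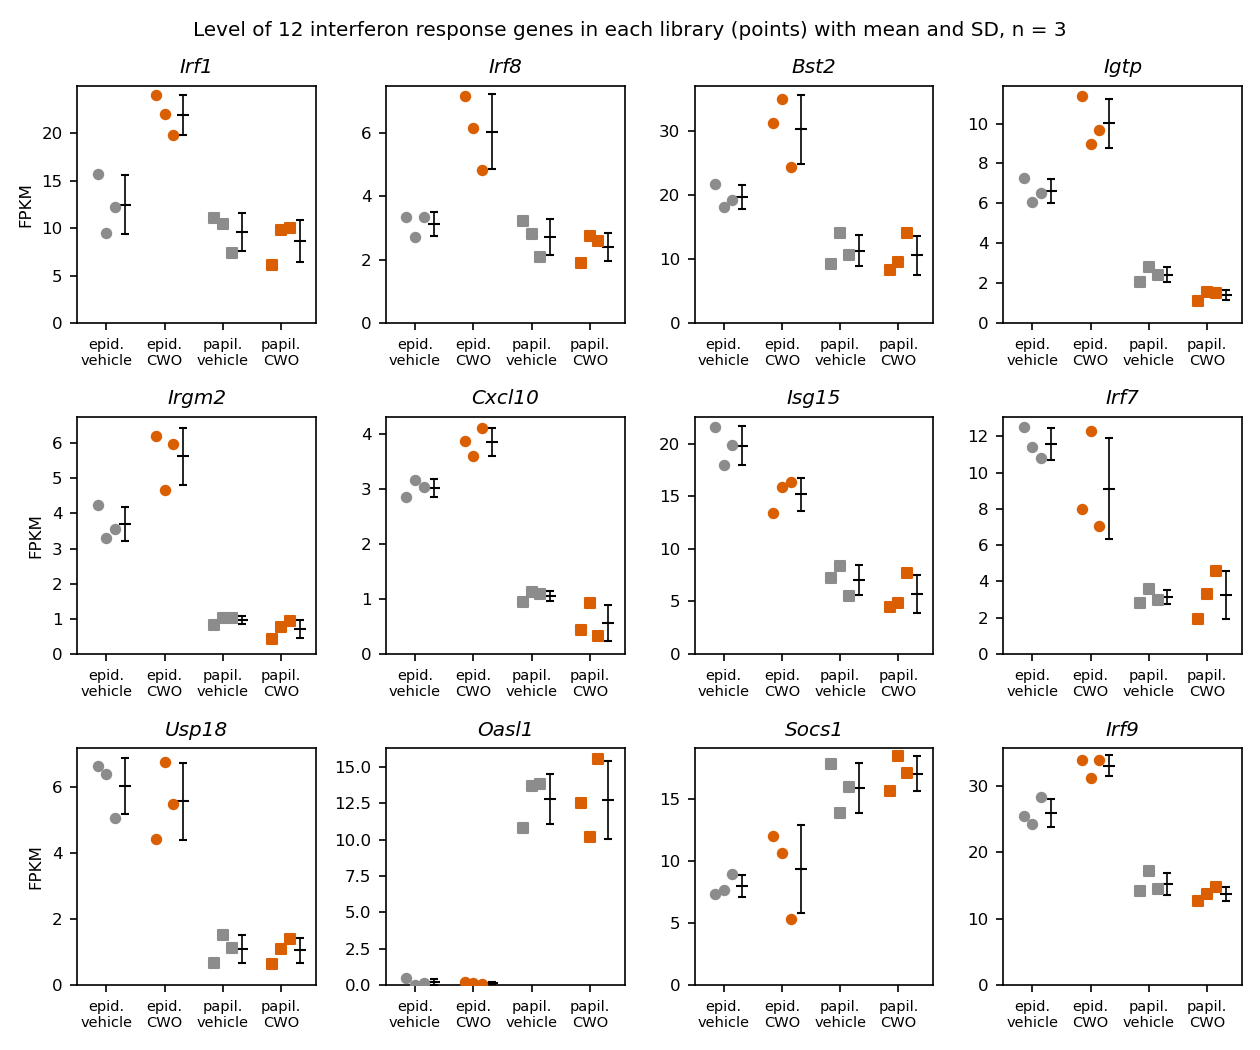
Level in FPKM (y axis, linear from 0) of 12 of the interferon response genes in each library. Points are libraries (circles epidermis, squares papilloma, grey vehicle, orange CWO), and bars beside them are the mean and SD of 3 libraries. All 6 epidermis libraries lie at or below 0.454 FPKM for Oasl1, and all 6 papilloma libraries lie at or above 10.2 FPKM.

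The windows around the gene starts were searched for the core letters of both elements. Sequences were taken from RefSeq's table for the mouse build GRCm38.p6, in which 32 of the 41 genes had a window of 250 bases before to 50 bases after the annotated start. This build differs from the mm9 build of the expression files, and the reference genome is not of the FVB/NJ strain. Each line gives the 150 bases before the start, 5′ to 3′ on the gene's strand, and capitals mark matches to the ISRE core (GAAA, any 2 bases, GAAA) or to the GAS core (TTCNNNGAA), searched on both strands with overlaps allowed. Igtp is shown because it was the only one of the genes called in an oil comparison below, and Irgm2 as its neighbour with a similar window. Irf1 is shown for a GAS match alone and Isg15 for ISRE matches alone. Oasl1 is shown because it holds neither core and has the highest value on the plot of tissue differences.
Igtp, chr11:58199406-58199555, plus strand: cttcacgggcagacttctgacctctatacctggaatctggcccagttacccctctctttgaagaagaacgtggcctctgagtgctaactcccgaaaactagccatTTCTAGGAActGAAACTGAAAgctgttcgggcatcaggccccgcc
Irgm2, chr11:58214827-58214976, plus strand: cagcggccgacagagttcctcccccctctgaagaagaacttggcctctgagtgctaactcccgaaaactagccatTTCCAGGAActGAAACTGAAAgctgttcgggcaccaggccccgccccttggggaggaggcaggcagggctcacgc
Irf1, chr11:53769864-53770013, plus strand: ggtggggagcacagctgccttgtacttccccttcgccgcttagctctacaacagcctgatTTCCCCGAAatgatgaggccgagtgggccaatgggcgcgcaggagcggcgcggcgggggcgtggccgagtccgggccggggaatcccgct
Isg15, chr4:156200819-156200968, minus strand: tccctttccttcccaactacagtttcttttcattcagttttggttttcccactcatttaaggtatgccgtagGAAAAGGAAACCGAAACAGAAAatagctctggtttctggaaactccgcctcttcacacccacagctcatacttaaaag
Oasl1, chr5:114923090-114923239, plus strand: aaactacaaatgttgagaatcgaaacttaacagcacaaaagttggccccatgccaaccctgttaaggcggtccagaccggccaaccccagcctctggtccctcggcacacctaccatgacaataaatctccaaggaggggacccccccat

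In the Igtp window the GAS match TTCTAGGAA began at position -45 and the ISRE match GAAACTGAAA at -34, counted from the annotated start. In the Irgm2 window the GAS match TTCCAGGAA began at -75 and the same ISRE letters at -64. Shifted by 30 bases, the 100 bases before the Igtp start and bases -130 to -31 of Irgm2 were identical at 94 positions. Isg15 held 3 overlapping ISRE matches, beginning at -78, -72 and -66. Irf1 held the GAS match TTCCCCGAA at -90.

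Over the full 300-base windows, the ISRE core occurred in 19 of 32 genes (59.4%) and in 3.99% of the 27025 genes in the table. The GAS core occurred in 11 of 32 (34.4%) and in 9.55% of all genes. Both were found in Oas1a, Bst2, Igtp, Irgm2, Tgtp1 and Tgtp2, which is 18.8% of the 32 windows against 0.614% of all windows. Irf7, Irf9, Oasl1, Oasl2, Ifi44, Xaf1, Ifi47 and Cxcl9 held neither. A match is a run of letters and was not shown to be a bound site.

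**Figure D2:**
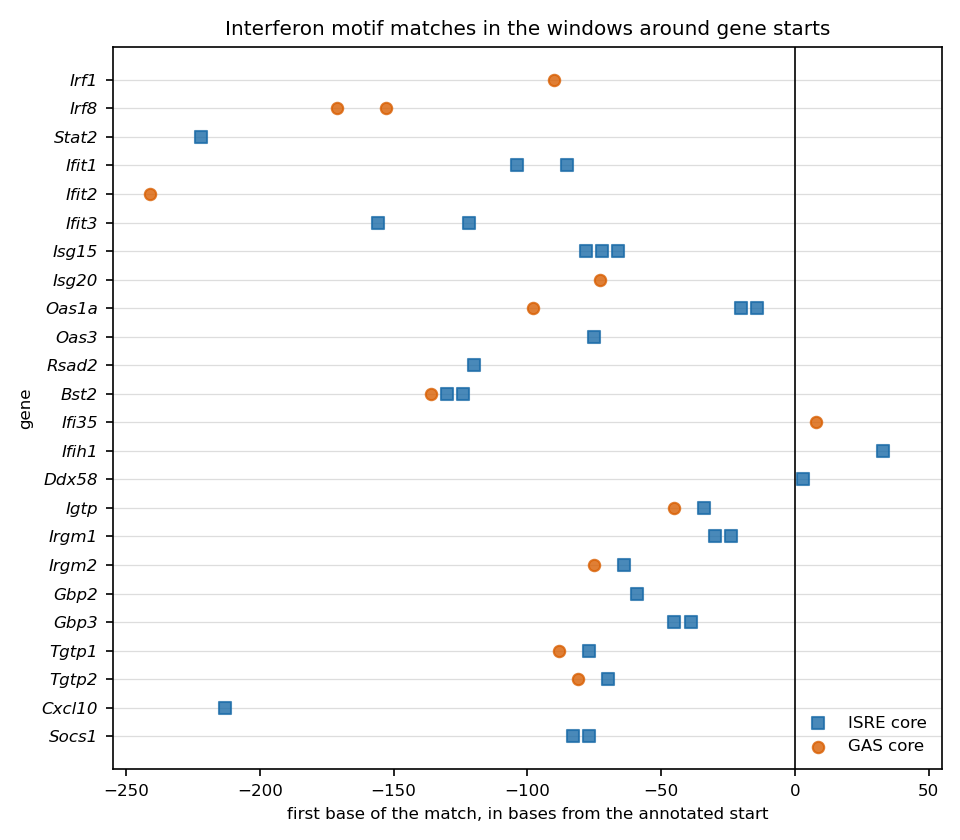
Position of each match to the ISRE core (blue squares) and the GAS core (orange circles) along the window of each interferon response gene that held a match, in bases from the annotated start (x axis, linear). Most matches lie before the start, and those of Ifi35, Ifih1 and Ddx58 lie after it.

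The first comparison asked what a single application of CWO did to these genes in normal epidermis within 24 h. Of the 26 genes tested, none passed an adjusted p of 0.05 (limma, Benjamini-Hochberg adjustment over 12288 genes), while 2.00% of all genes tested did. At an unadjusted p under 0.05, 8 were higher with CWO and 1 was lower, a total of 9 of 26 against 14.7% of all genes. The 3 libraries of each group did not overlap for 10 of the 26, against 18.7% of all genes. The 9 higher in every CWO library, against 12.1% of all genes, were Irf1, Irf8, Irf9, Bst2, Igtp, Irgm2, Gbp2, Cxcl10 and Parp9. The 1 lower in every CWO library, against 6.67% of all genes, was Isg15. The median log2 fold change was 0.17 over the 26 genes and 0.02 over all genes.

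Among the 26 genes, the transcription factors Irf1 and Irf8 had the highest estimates. Irf1, the activator that carries the interferon gamma response to its later targets, was at 15.8, 9.51 and 12.2 FPKM with vehicle against 24.1, 22.0 and 19.8 FPKM with CWO. The lowest CWO library was above the highest vehicle library, and the CWO mean was 1.76 times the vehicle mean (log2 fold change 0.79 on the log2(FPKM + 1) scale, SE 0.18, adjusted p = 0.0683 by limma). In the authors' deposited table for epidermis, whose 176 genes reach an adjusted p of at most 0.00544, Irf1 is the only one of the 41 genes, with group means of 407 and 705, a log2 fold change of 0.79 and an adjusted p of 0.00295. Irf1 therefore passed in the authors' table and missed the threshold in the limma fit, with the same log2 fold change in both.

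Irf8, a transcription factor of myeloid and dendritic cells that interferon gamma also induces, was at 3.35, 2.70 and 3.34 FPKM with vehicle against 7.17, 6.14 and 4.83 FPKM with CWO. These groups did not overlap either, and the CWO mean was 1.93 times the vehicle mean (log2 fold change 0.76, SE 0.16, adjusted p = 0.0620 by limma). Irf9 was at 25.4, 24.2 and 28.3 FPKM with vehicle against 34.0, 31.2 and 34.0 FPKM with CWO, again without overlap and with a smaller ratio of means, 1.27. Over 20 alternative settings Irf8 passed in 6 and Irf1 in 2, always above 0, with adjusted p-values from 0.0189 to 0.639 and from 0.0416 to 0.658 (limma). Irf7, the master amplifier of type I interferon, did not follow them. It was at 12.5, 11.4 and 10.8 FPKM with vehicle against 8.02, 12.3 and 7.07 FPKM with CWO, so that 2 of 3 CWO libraries were below all vehicle libraries (log2 fold change -0.35, SE 0.19, adjusted p = 0.465). Stat2 differed by a log2 fold change of -0.02.

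Among the interferon-inducible GTPases, which act on vacuoles that hold microbes, all 6 that were tested had estimates above 0, from 0.18 to 0.55 with a median of 0.41, and none passed. Igtp (Irgm3) was at 7.26, 6.05 and 6.50 FPKM with vehicle against 11.4, 8.99 and 9.69 FPKM under CWO (log2 fold change 0.53, SE 0.13, adjusted p = 0.103 by limma). Irgm2 is its neighbour on chromosome 11, and the windows of the 2 genes share the near-identical stretch described above. Irgm2 was at 4.25, 3.29 and 3.56 FPKM with vehicle against 6.20, 4.68 and 5.98 FPKM with CWO. For both genes every CWO library lay above every vehicle library, and the ratios of the means were both 1.52. Gbp2, a guanylate-binding protein, had a ratio of 1.63, also without overlap.

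The antiviral effectors were divided. Of 8 tested, 4 had estimates above 0 and 4 below, and their median was 0.01. Bst2 (tetherin), which holds budding virus on the cell surface, was at 21.7, 18.1 and 19.2 FPKM with vehicle against 31.2, 35.1 and 24.4 FPKM with CWO. It was the only effector of the 8 whose groups lay apart upwards (log2 fold change 0.58, SE 0.15, adjusted p = 0.106 by limma). Isg15, a ubiquitin-like protein conjugated to others in a type I response, was at 21.6, 18.0 and 19.9 FPKM with vehicle against 13.4, 15.8 and 16.4 FPKM with CWO. Every CWO library of Isg15 lay below every vehicle library (log2 fold change -0.36, SE 0.13, adjusted p = 0.223). Cxcl10, a chemokine that draws CXCR3-bearing T cells, was at 2.85, 3.16 and 3.03 FPKM with vehicle against 3.86, 3.59 and 4.10 FPKM with CWO, and it lies within the transcribed span of Art3 in the files' annotation. Art3 itself averaged 6.16 FPKM with vehicle and 3.13 FPKM with CWO, a difference in the other direction. The feedback inhibitors Usp18 and Socs1 had log2 fold changes of -0.10 and 0.14, with overlapping groups. For Socs1 the SE of 0.26 was larger than the difference, since the CWO libraries spread from 5.34 to 12.1 FPKM.

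The 14 genes with too little signal for the fit were tested one by one on mean FPKM with a two-sided exact permutation test, in which 3 libraries against 3 cannot give a p below 0.1. The groups did not overlap for 3 of the 14, against 11.8% of 5836 genes below the filter with a level above 0 in these libraries. These 3 reached 0.1. They were Cxcl9, higher with CWO (against 5.16% of those genes) at 1.36 ± 0.358 against 0.731 ± 0.269 FPKM (SD, n = 3), and Ifit1 and Rsad2, which were lower (against 6.65%). Ifit1 averaged 0.453 ± 0.0749 FPKM with CWO and 0.847 ± 0.122 FPKM with vehicle. Rsad2 averaged 0.161 ± 0.0727 FPKM with CWO and 0.381 ± 0.109 FPKM with vehicle, on 5 to 29 fragments per library.

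Of the other genes of the pathway, those of the immunoproteasome and peptide transport, which prepare peptides for MHC class I, were called in this comparison. Of 10 such genes 3 were called, all higher with CWO, against 2.00% of all genes called in either direction. The median log2 fold change of the 10 was 0.43. With the muscle markers as a covariate, 9 of all genes were called in place of 246, and whether these 3 were among them was not examined. Psme2, a subunit of the proteasome activator PA28, rose from 65.1, 61.5 and 64.3 FPKM to 110, 91.0 and 109 FPKM (log2 fold change 0.68, SE 0.11, adjusted p = 0.0217 by limma). Its partner Psme1 and the catalytic subunit Psmb9 rose by log2 fold changes of 0.62 and 0.53. No gene was called among 10 receptors and kinases, 11 sensors and adaptors, 24 other interferon-stimulated genes and 10 negative regulators. The smallest p in those lists was that of Slfn2, a regulator of T cell quiescence, at 5.52, 6.36 and 5.85 FPKM with vehicle and 10.2, 8.86 and 9.19 FPKM under CWO (log2 fold change 0.59, SE 0.12, adjusted p = 0.0554).

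Markers of other cells differed between these groups as well. The 5 Langerhans and dendritic cell markers summed to 52.2 to 61.2 FPKM with vehicle and to 66.4 to 75.0 FPKM with CWO, without overlap. Of these 5, Itgax, Ccr7 and Cd83 were higher in every CWO library. Cd83 ranged from 3.61 to 4.04 FPKM with vehicle and from 6.30 to 8.21 FPKM with CWO. The defining gene Cd207 (langerin) overlapped, from 45.9 to 53.8 and from 53.2 to 59.3 FPKM, and so did Flt3. None of the 5 was at 0 in all libraries of a group. Fibroblast markers went the other way, with a sum over 6 genes of 28.2 to 68.7 FPKM with vehicle and 11.8 to 23.4 FPKM with CWO, and 5 of the 6 were lower in every CWO library. The sums of 7 T cell markers overlapped, at 245 to 285 and 234 to 276 FPKM. So did those of 8 macrophage and monocyte markers, at 53.9 to 82.2 and 49.3 to 69.9 FPKM. Within these lists, Cd3e and Fcgr1 were lower in every CWO library. Cd3e was at 22.9 to 31.2 FPKM with vehicle and 18.4 to 22.7 FPKM with CWO, and Fcgr1 at 0.172 to 0.267 and 0.0463 to 0.142 FPKM. The 6 cytotoxic and natural killer cell markers summed to 43.1 to 53.6 and 35.1 to 45.4 FPKM, while Klrk1 and Gzmb among them were higher and Prf1 lower in every CWO library. The part of these cells in the values of Irf8 and the other genes was not tested.

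In established papillomas, the same genes were compared after 6 weeks of CWO or vehicle. None of 24 genes tested was called, and 0% of the 12143 genes in the fit were. By limma-voom on the recovered fragments no gene was called either. At an unadjusted p under 0.05 limma held 1 of the 24 genes and 2.52% of all genes. Estimates were above 0 for 6 genes and below 0 for 18, while 47.7% of all genes were above 0. The median log2 fold change was -0.04 against -0.01 over all genes. Only 1 of the 24 had groups that did not overlap, against 6.60% of all genes, and it was lower with CWO, against 3.58%.

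That gene was Igtp, at 2.04, 2.79 and 2.43 FPKM with vehicle against 1.11, 1.57 and 1.53 FPKM with CWO. Every CWO library lay below every vehicle library, and the CWO mean was 0.579 of the vehicle mean (log2 fold change -0.51, SE 0.14, unadjusted p = 0.00623 and adjusted p = 1.00 by limma). In the authors' deposited table for papilloma, which lists all 41 genes with no adjusted p below 1, Igtp has a log2 fold change of -0.79 and an unadjusted p of 0.00482. Cxcl9 is the other one of the 41 with an unadjusted p under 0.05 in the authors' deposited table, at -1.14 and 0.0274. Of the 24 genes tested here, 19 have the same direction in that table. All 4 GTPases that were tested had estimates below 0, from -0.51 for Igtp to -0.01 for Ifi47.

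The next genes by p had groups that overlapped. Isg20, an exonuclease that degrades viral RNA, was at 9.32, 7.19 and 4.34 FPKM with vehicle against 4.41, 3.89 and 5.49 FPKM with CWO, where the vehicle group itself spread by more than the difference of the means. Isg15 was at 7.27, 8.37 and 5.53 FPKM with vehicle against 4.48, 4.89 and 7.72 FPKM with CWO, with CWO library 3 above 2 of the 3 vehicle libraries. Irf9 was at 14.2, 17.2 and 14.4 FPKM with vehicle against 12.7, 13.7 and 14.8 FPKM with CWO. The transcription factors that were apart in epidermis were not apart here. Irf1 was at 11.0, 10.4 and 7.36 FPKM with vehicle against 6.09, 9.76 and 10.0 FPKM with CWO, and Irf8 at 3.23, 2.82 and 2.09 FPKM and at 1.91, 2.74 and 2.58 FPKM.

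Among the 16 genes below the filter with a level in papilloma, only Cxcl10 reached the smallest possible exact permutation p of 0.1, and it was lower in every CWO library, against 5.92% of 6450 genes below the filter with a level above 0. It was at 0.950, 1.13 and 1.09 FPKM with vehicle against 0.431, 0.933 and 0.324 FPKM with CWO, on 5 to 20 fragments per library, while Art3 averaged 3.28 and 3.64 FPKM. None of the wider pathway genes was called in papilloma. The Langerhans and dendritic cell markers summed to 7.78 to 11.0 FPKM with vehicle and to 7.53 to 9.20 FPKM with CWO. Among these 5, Flt3 and Ccr7 were higher in every CWO library. Flt3 was at 0.378 to 0.434 and 0.473 to 0.740 FPKM, and Ccr7 at 0.540 to 0.870 and 0.883 to 1.08 FPKM. The macrophage and monocyte markers summed to 97.1 to 127 and 81.2 to 96.3 FPKM. The macrophage sums did not overlap, although Itgam was the only one of the 8 markers that was apart by itself. The sums of the T cell markers and of the cytotoxic and natural killer cell markers overlapped. Cd2 of the former and Klrk1 of the latter were lower in every CWO library. The part of these cells in the values of the interferon response genes was not tested.

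Some libraries were high or low for many of the genes at once. Vehicle library 2 was the highest of the 6 papilloma libraries for 17 of 40 genes, and CWO library 1 the lowest for 21 of 40. Over the 11448 genes at 1 FPKM or more in every papilloma library, they were highest for 24.0% and lowest for 26.6%. The 40 genes include ones below that level, so the 2 sets are not alike. In epidermis, vehicle library 2 was the lowest for 20 of 40 genes and CWO library 1 the highest for 16. Over the 11379 genes at 1 FPKM or more in every epidermis library, these shares were 30.7% and 16.3%. Vehicle library 2 also had the highest muscle marker sum of its group in both tissues, 14812 FPKM in epidermis and 307 FPKM in papilloma.

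**Figure D3:**
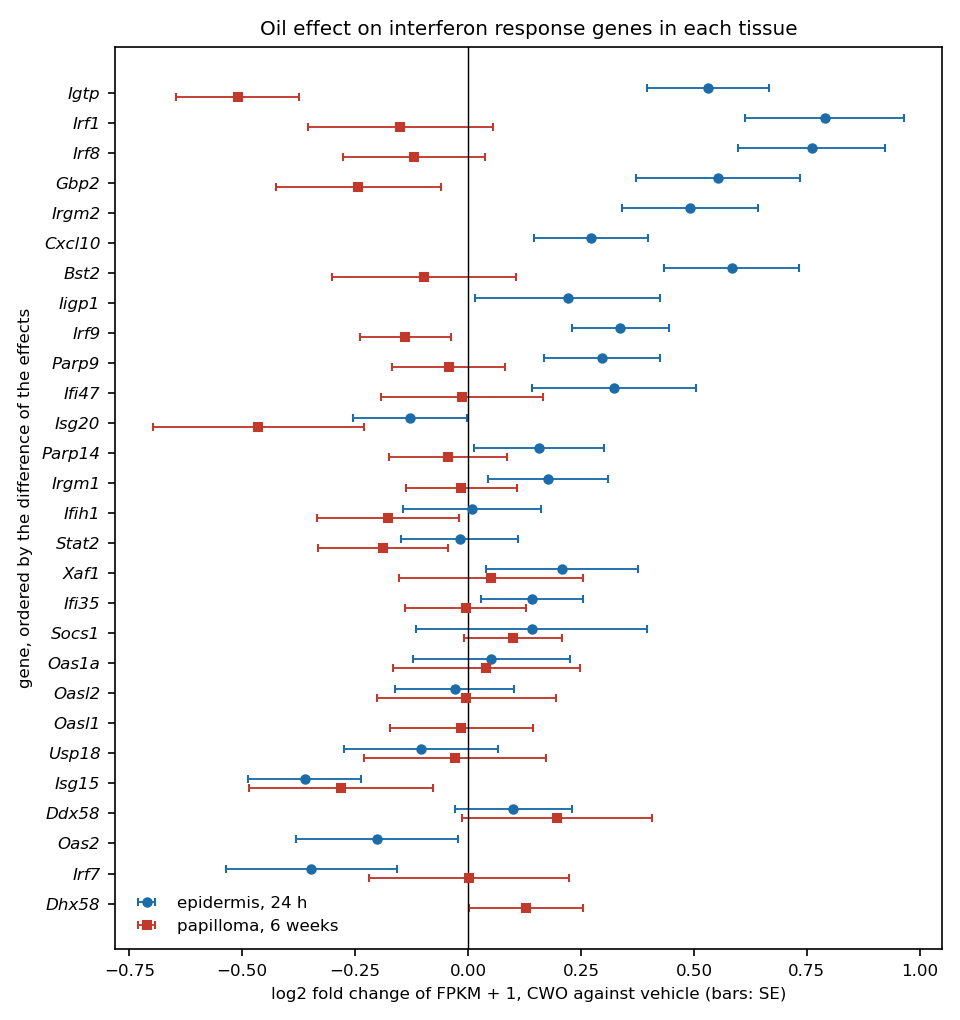
Log2 fold change of FPKM + 1, CWO against vehicle (x axis, linear), with its SE, for each interferon response gene tested in epidermis (blue circles) and papilloma (red squares), ordered by the difference of the effects. Igtp, at the top, has an estimate of 0.53 in epidermis and of -0.51 in papilloma, and genes with 1 symbol passed the filter in 1 tissue only.

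The third comparison set the effects side by side in a single fit of all 12 libraries. Igtp was the one gene of 28 tested whose effect differed between the tissues (papilloma minus epidermis, log2 -1.04, SE 0.18, adjusted p = 0.0277 by limma), where 0.743% of the 13185 genes in this fit were called and 0.713% in this direction. The vehicle means of Igtp were 6.60 ± 0.611 FPKM in epidermis and 2.42 ± 0.376 FPKM in papilloma, and the CWO means 10.0 ± 1.22 and 1.40 ± 0.254 FPKM (SD, n = 3). The call was lost in 11 of 25 alternatives, 7 of which left out 1 library, with adjusted p-values from 0.0132 to 0.197 and the same direction in all 25. It was lost without CWO library 1 or vehicle library 2 of epidermis, without any CWO library of papilloma, and without vehicle library 2 or 3 of papilloma, with differences from -0.95 to -1.09 in these 7 fits.

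The genes next in order did not pass. Irf8 had a difference of -0.88 (SE 0.23, adjusted p = 0.121 by limma), Cxcl10 of -0.69 (SE 0.19, adjusted p = 0.161) and Irgm2 of -0.70 (SE 0.20, adjusted p = 0.180). Irgm2 in papilloma was at 0.826, 1.02 and 1.04 FPKM with vehicle against 0.421, 0.772 and 0.926 FPKM with CWO. All 6 GTPases tested had differences below 0, from -1.04 to -0.19, and so did 20 of the 28 genes. The other 8 lay above 0, as did 42.4% of all genes. The median was -0.19 over the 28 genes against -0.04 over all genes. Dhx58, an RNA helicase of the sensing pathway, had the highest difference, 0.38 (adjusted p = 0.518). Among the wider pathway genes none was called, and the smallest adjusted p was 0.0681, for Psme2 at -0.67.

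The fourth comparison set vehicle papilloma against vehicle epidermis, which differ also in the treatment and handling given at the start. Of 28 genes tested, 14 were called, against 70.2% of the 12789 genes in the fit. Upward calls numbered 2, against 31.8% of all genes, and downward calls 12, against 38.3%. Of the downward calls, Usp18, Irgm2 and Cxcl10 did not reach 1 FPKM in every vehicle papilloma library. They passed the filter only with the epidermis libraries, so their places among the tested genes rest in part on the difference itself. The groups did not overlap for 15 of the 28, against 74.5%, with 2 higher in papilloma, against 33.8%, and 13 lower, against 40.7%. The median log2 difference was -0.34 over these genes and -0.07 over all genes. This comparison and the 2 oil comparisons share their vehicle libraries.

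Oasl1, an oligoadenylate synthetase-like protein that restrains translation of Irf7, passed the filter through the papilloma libraries only, so that its place among the tested genes rests on the difference itself and its values are given as a description. In vehicle epidermis it was at 0.454, 0 and 0.171 FPKM, on 12, 0 and 8 fragments, and in vehicle papilloma at 10.8, 13.7 and 13.8 FPKM, on 318, 523 and 517 fragments. The means differed 61.4-fold, and this ratio rests on few epidermis fragments. It was 150-fold without epidermis vehicle library 1, 40.9-fold without library 2 and 56.3-fold without library 3, and 58.9-fold to 66.1-fold without 1 papilloma library. In the fit (log2 difference 3.52 on the log2(FPKM + 1) scale, which understates it, SE 0.17, adjusted p = 1.16e-06 by limma) it was the highest of the 28 estimates. With CWO it was at 0.177, 0.173 and 0.0880 FPKM in epidermis and at 12.5, 10.2 and 15.5 FPKM in papilloma, so that the difference between the tissues was present under both treatments. Its paralog and neighbour Oasl2, which lies beside it on chromosome 5, averaged 1.56 ± 0.0440 and 1.59 ± 0.445 FPKM (SD, n = 3). The other gene that rose was Socs1, an inhibitor of JAK kinases, from 7.32, 7.64 and 9.00 FPKM in epidermis to 17.8, 13.9 and 16.0 FPKM in papilloma (log2 difference 0.91, SE 0.13).

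The feedback inhibitors thus went opposite ways. Usp18, which removes Isg15 from its targets and blocks the type I receptor, fell from 6.63, 6.39 and 5.06 FPKM to 0.666, 1.51 and 1.12 FPKM, a mean 5.49 times higher in epidermis (log2 difference -1.76, SE 0.18, adjusted p = 4.76e-05 by limma). Isg15 itself fell from 21.6, 18.0 and 19.9 FPKM to 7.27, 8.37 and 5.53 FPKM, and its mean was 2.81 times higher in epidermis. Irf7 fell from 12.5, 11.4 and 10.8 FPKM to 2.82, 3.58 and 2.99 FPKM, a ratio of 3.70. For each of the 3 genes all epidermis libraries lay above all papilloma libraries by a wide gap.

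The GTPases Igtp and Irgm2 also fell. Igtp had a log2 difference of -1.15 (SE 0.13) and Irgm2 of -1.26 (SE 0.13), from 4.25, 3.29 and 3.56 FPKM to 0.826, 1.02 and 1.04 FPKM. Gbp2 fell by 0.66, while Irgm1, Iigp1 and Ifi47 had differences of -0.17, 0.16 and -0.10 that did not pass. Cxcl10 fell from 2.85, 3.16 and 3.03 FPKM to 0.950, 1.13 and 1.09 FPKM (log2 difference -0.96, SE 0.11), and its host gene Art3 averaged 6.16 FPKM in epidermis and 3.28 FPKM in papilloma. The RNA sensor Ifih1 (MDA5) fell from 3.80, 4.15 and 4.92 FPKM to 1.48, 2.42 and 2.11 FPKM, while the sensors Ddx58 (RIG-I) and Dhx58 (LGP2) had differences of -0.34 and 0.04 that did not pass.

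The remaining calls were those of Irf9, Bst2, Ifi35 and Stat2. Irf9 fell from 25.4, 24.2 and 28.3 FPKM to 14.2, 17.2 and 14.4 FPKM, and Bst2 from 21.7, 18.1 and 19.2 FPKM to 9.24, 14.0 and 10.7 FPKM. Ifi35 fell from 25.4, 28.0 and 29.9 FPKM to 16.7, 21.6 and 16.6 FPKM, and Stat2 by a log2 difference of 0.42. The groups were apart for all 4. The activators Irf1 and Irf8 had differences of -0.34 and -0.16 that did not pass, with overlapping groups. Of the 12 genes below the filter here, 5 had groups that did not overlap and reached the smallest exact permutation p of 0.1, against 35.6% without overlap among 5836 genes below the filter with a level above 0. Ifit2, Mx1 and Ifi44 were higher in papilloma, against 19.9%, and Ifit1 and Cxcl11 lower, against 15.7%. Ifit2, Mx1, Ifi44 and Cxcl11 were below 1 FPKM in every library.

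**Figure D4:**
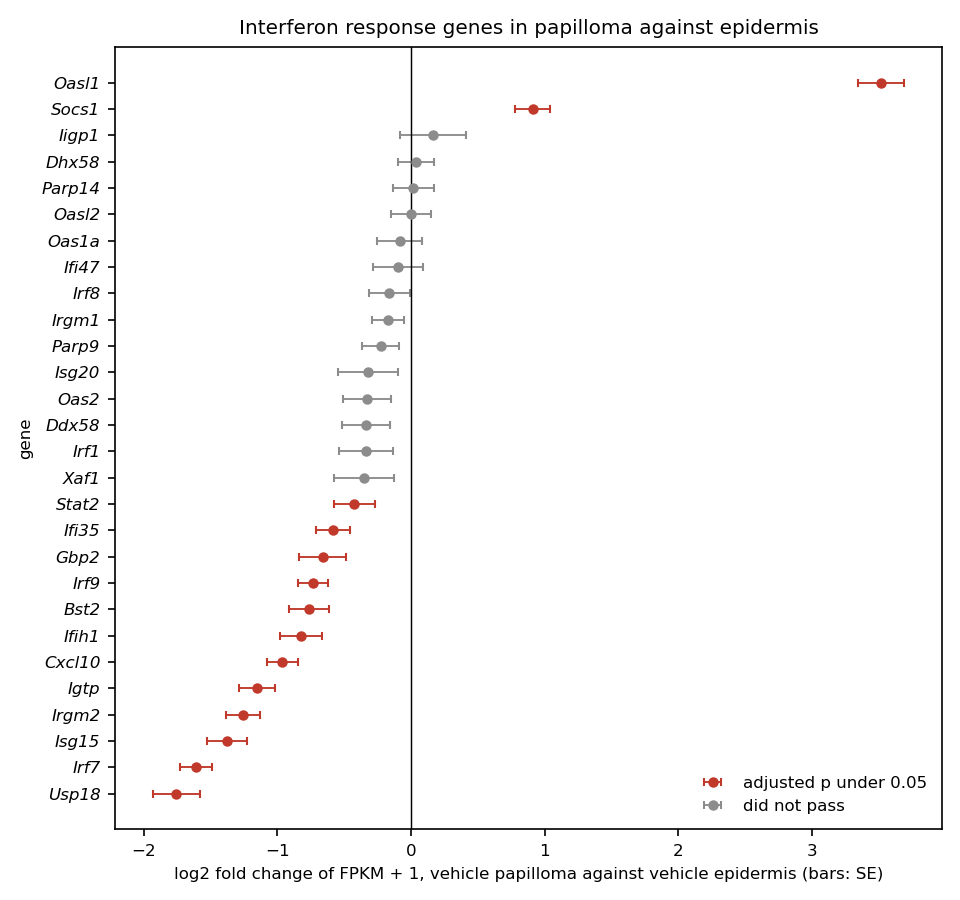
Log2 difference of FPKM + 1 between vehicle papilloma and vehicle epidermis (x axis, linear) with its SE for the 28 interferon response genes tested. Red points passed an adjusted p of 0.05 and grey points did not. Oasl1 stands alone at 3.52, and Usp18 is lowest at -1.76.

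The counts of the wider pathway between the tissues are read against the 70.2% of all genes that were called, 31.8% upwards and 38.3% downwards. All 10 immunoproteasome and peptide transport genes fell, from -0.64 for Psmb10 to -2.59 for Psmb9. Of 28 other interferon-stimulated genes tested, 13 rose and 5 fell. Ifi204, a DNA-binding protein of myeloid cells, rose by a log2 difference of 2.95, and Slfn2 by 2.51, while Ifi27l2a fell by 2.05. Of 10 receptors and kinases, Jak2 and Il10rb rose and Il28ra (the interferon lambda receptor), Ifngr1 and Ifngr2 fell. Of 12 sensors and adaptors tested 4 rose and 4 fell, and of 10 negative regulators 5 rose, led by Samhd1 at 1.98, and 2 fell, led by Ptpn6 at -1.96.

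Markers of many other cells also differed between these groups. T cell markers summed to 245 to 285 FPKM in vehicle epidermis and 23.5 to 31.5 FPKM in vehicle papilloma. Markers of cytotoxic and natural killer cells, which release interferon gamma, summed to 43.1 to 53.6 and 1.77 to 5.39 FPKM. Of these 6 markers 3 were lower in every papilloma library, while Eomes was higher, at 0 to 0.0839 and 0.755 to 2.18 FPKM. Langerhans and dendritic cell markers summed to 52.2 to 61.2 and 7.78 to 11.0 FPKM. Of these 5 markers 3 were lower in every papilloma library, while Itgax was higher, at 1.33 to 1.60 and 2.28 to 2.96 FPKM. The sum of the macrophage and monocyte markers was higher in papilloma, 97.1 to 127 FPKM against 53.9 to 82.2 FPKM. Of these 8 markers 6 were higher and 2 lower in every papilloma library. The lower ones were Emr1 (F4/80), at 3.74 to 4.30 FPKM in epidermis and 0.573 to 1.65 FPKM in papilloma, and Csf1r, at 24.6 to 27.8 and 9.01 to 11.0 FPKM. Fibroblast markers summed to 28.2 to 68.7 FPKM in epidermis and 335 to 493 FPKM in papilloma, and 5 endothelial markers to 2.69 to 11.4 and 25.6 to 32.0 FPKM. Neutrophil markers, of which Mmp8 and Ngp were at 0 in all vehicle epidermis libraries, summed to 0.379 to 1.14 and 15.3 to 25.7 FPKM. The 5 plasmacytoid dendritic cell markers include Cox6a2, which muscle also expresses and which made up most of their sum in epidermis. They were split, with Siglech, Ccr9 and Klk1 higher and Cox6a2 and Pacsin1 lower in every vehicle papilloma library. The defining gene Siglech was at 0.124 to 0.132 FPKM in vehicle epidermis and at 0.505 to 0.688 FPKM in vehicle papilloma. Pacsin1 was at 0.148 to 0.210 and at 0.113 to 0.133 FPKM. Which cells carried each of the 14 calls was not tested. With the mean level of the muscle markers as a covariate, Oasl1, which its own difference brought into the fit, was the 1 gene still called, at a log2 difference of 3.68 (adjusted p = 0.0102 by limma), and 978 of all genes were called in place of 8974. The muscle sums of the tissues do not overlap, so the covariate and the tissue can be told apart only in part, and the SE grew with it. Irgm2 was then at -1.16 (SE 0.49), Irf7 at -1.11 (SE 0.43), Cxcl10 at -0.82 (SE 0.45), Igtp at -0.81 (SE 0.48) and Usp18 at -0.68 (SE 0.49), while Bst2 was at -0.04 (SE 0.46).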

How the data were processed

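PolyA RNA of 12 libraries was sequenced by the submitters from TruSeq RNA libraries. Per the submitters' processing notes, reads passed through bcl2fastq 1.8.4, TopHat2 2.0.4, Cufflinks 2.0.2 and DESeq with the mm9 build. Per the file headers, the authors' per-library values are FPKM with an interval and a quantification status, and FPKM were deposited by the authors without rescaling here. The authors' deposited comparison tables give, per the file headers, a mean signal of each group (normalised counts), a fold (ratio), a log2 ratio and a p-value with its adjusted value.

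Values whose status was not OK were treated as missing, FPKM of entries with the same symbol were summed, and short non-coding genes were dropped. The limma-trend method (limma 3.58.1, R 4.3.3) tested log2(FPKM + 1) for genes with at least 1 FPKM in at least 3 fitted libraries, two-sided, with a Benjamini-Hochberg adjusted p under 0.05. The difference of the oil effects used all 12 libraries. Genes below the filter had exact permutation tests. Fragments were recovered from FPKM and its interval, and 68.0% to 69.2% of recovered values under 500 were whole within 0.02. The depth of 11.1 to 24.6 M fragments limits genes of low level.

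The genes and lists were chosen with earlier results of these data known, so no list has a p of its own. Values in every library are printed for genes called in a comparison, at most 12 by smallest p, and for the 4 with the smallest p in each. Epidermis replicates are samples that the labels do not tie to separate mice, so p-values there measure the spread between these samples. TruSeq strand use in counting is not given in the sources used here, and reads of overlapping genes (Cxcl10 and Cxcl11 with Art3, Parp9 with Dtx3l, Ifi47 and Tgtp2 with Olfr56) may be shared. The limma fit was tried on simulated data. The changes planted there were larger than the oil estimates of these genes within either tissue, so the trial does not tell how often effects of that size would be found. Alternatives were other pseudocounts, filters, scalings, limma settings, limma-voom, a replicate block, a muscle covariate and each library left out.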

Additional observations from a re-analysis of the deposited data

Results flagged for a closer look

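The effect of CWO on Igtp, an interferon-inducible GTPase, differed between the tissues by a log2 value of -1.04 (papilloma minus epidermis, SE 0.18, adjusted p = 0.0277 by limma), which is a test of the difference itself. All 3 CWO libraries were above all vehicle libraries in epidermis and all 3 were below them in papilloma, on 120 to 366 fragments per epidermis library and 42 to 101 per papilloma library. Neither effect passed an adjusted p of 0.05 within its own tissue.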

How the results depend on the processing

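No tested value of a named gene changed direction under the alternatives run. In epidermis the count of called interferon response genes was 0, and it was 2 with at least 1 FPKM in every library (Irf1, Irf8), 2 in a fit of all 12 libraries (Irf8, Igtp), 1 with quantile normalization (Irf8), 2 with the robust setting (Irf1, Irf8), and 0 to 2 with a library left out (Irf8 and Bst2 without CWO library 3, Irf8 without vehicle library 3). For the difference of the effects the count was 1, and it was 0 with limma-voom, 0 with no filter, 0 with the replicate block, 0 without epidermis vehicle libraries 1 and 2, which are rich in muscle genes, and 0 to 2 with a library left out (2, Irf8 and Igtp, without epidermis CWO library 3). Between the tissues it was 14, and it was 1 with the muscle covariate and 12 to 16 with a library left out. Oasl1 did not pass the filter there when a papilloma vehicle library was left out. In papilloma it was 0 throughout. The cause of these changes was not tested.

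Over all genes, calls ranged from 9 to 685 in epidermis around 246, with 9 under the muscle covariate and 685 without vehicle library 3. They ranged from 0 to 4 in papilloma, from 17 to 328 around 98 for the difference, and from 978 to 10234 around 8974 between the tissues. Over genes, the deviations from the group mean, not the levels themselves, were correlated between the vehicle and CWO samples with the same number. These correlations were 0.00345, -0.411 and -0.332 in epidermis and 0.222, 0.118 and 0.0387 in papilloma, so the sample numbers were not read as pairs. With the replicate block, 55 genes were called in epidermis, 4 in papilloma and 25 for the difference, and no interferon response gene in these 3. Low fragment numbers limit the 13 genes that never passed the filter.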

Other observations

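In epidermis, the 5 interferon response genes with the smallest p for CWO (Irf8, Irf1, Igtp, Bst2 and Irgm2) all held a match to the GAS core TTCNNNGAA in the 300-base window around their start. This was seen after the values were known and is given as a description with no test. The next genes by p, Irf9, Gbp2 and Isg15, held no such match, so the pattern depends on where the list is cut. The matches of Igtp and Irgm2 lie in the shared stretch of 100 bases that was identical at 94 positions, so these 2 genes are not separate cases. The 8 tested genes with a match had a median log2 fold change of 0.51, with 7 above 0, and the 13 without one had a median of 0.14, with 9 above 0. Over all genes the medians were 0.03 for the 729 with a match, 416 of them above 0, and 0.02 for the 8040 without, 4431 of them above 0. For the ISRE core the medians were 0.16 for 12 interferon response genes with a match and 0.21 for 9 without. Over all genes they were 0.07 for the 305 with an ISRE match, 194 of them above 0, and 0.02 for the 8464 without, 4653 of them above 0. For the difference of the effects, the medians were -0.69 for the 8 genes with a GAS match and -0.16 for the 14 without, against -0.06 and -0.04 over all genes. Irf8 held 2 such matches, TTCTCGGAA beginning at -171 and TTCAGAGAA at -153, and Bst2 held TTCCAGGAA at -136. In papilloma the 7 genes with a match had a median of -0.12 and the 13 without had -0.01.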
